A study of Mus musculus with 18 samples.

Results

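The genes of 9 Toll-like receptors (Tlr1, Tlr2, Tlr3, Tlr4, Tlr6, Tlr7, Tlr8, Tlr9 and Tlr13) and of their co-receptor Cd14 were followed in bulk RNA from mouse tumours. The 10 genes were taken by symbol from a table of 21015 genes. All 10 were counted in every library and all 10 were among the 16125 genes that passed the filter on low counts. The family was selected on a measured value: the level of Tlr1 with clonidine against that in controls, in wild-type hosts, was already known. For that reason the other comparisons that use the libraries of that contrast are given as a description, with no p-value. Tests were kept for comparisons among the other libraries and for relations between genes after group means were removed. The average difference between genotypes, which is orthogonal to that contrast, was also tested. It still includes the wild-type clonidine libraries, so for Tlr1 it is not free of the known value.

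The tumours grew from implanted MC38-OVA cells, a mouse colon carcinoma line that carries the model antigen ovalbumin. The hosts, aged 10 weeks, were wild type (WT) or ADRA2A-/- (KO), and received clonidine, guanabenz or PBS once a day by intraperitoneal injection. Both drugs activate alpha2-adrenergic receptors, and Adra2a encodes one of these. Tumours were taken 7 days after treatment. There are 6 groups with 3 libraries each, called WT-Control, WT-Clonidine and WT-Guanabenz for wild-type hosts and, in the same way, KO-Control, KO-Clonidine and KO-Guanabenz for ADRA2A-/- hosts. The implanted cells keep their own Adra2a, so in the KO groups only host cells lack it. The control libraries have the treatment entry untreated, and PBS as their injection comes from the protocol. The KO-Guanabenz libraries also have the entry untreated although their titles name guanabenz. Their titles were followed, and what they received is in conflict between the labels. The labels do not tie libraries to separate animals, and the spread behind each p-value may therefore be partly technical.

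Toll-like receptors recognise conserved microbial or damage-related molecules and pass the signal through adaptor proteins to NF-kappaB and interferon regulatory factors. Tlr1, Tlr2, Tlr4 and Tlr6 act at the cell surface, where Tlr2 pairs with Tlr1 or Tlr6 to bind lipopeptides and Tlr4 binds lipopolysaccharide with the help of Cd14. Tlr3, Tlr7, Tlr8, Tlr9 and Tlr13 sit in endosomes and sense nucleic acids. In solid tumours these receptors are expressed mainly, but not only, by macrophages and other myeloid cells.

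Tlr1 and Tlr6 are neighbours and share sequence, which bears on how well their counts can be told apart. In GRCm38, RefSeq places Tlr1 at chr5:64924680-64933600 and Tlr6 at chr5:64953092-64970942, both on the minus strand and 19491 bases apart. Of the 31-base words in the GENCODE M21 protein-coding transcripts of Tlr1, 603 of 3090 (19.5%) also occur in Tlr6. For Tlr6, 616 of 3709 words (16.6%) occur in other genes, 607 of them in Tlr1. Reads that match both genes are shared out by kallisto, so the levels of Tlr1 and Tlr6 are less certain than those of the other members. The longest identical run is 229 bases, lies wholly in the coding sequence of both genes, at chr5:64925537-64925765 in Tlr1 and chr5:64953828-64954056 in Tlr6, and is shown because reads inside it cannot be assigned to either gene. It is written 5′ to 3′ on the minus strand.
Tlr1 and Tlr6 shared run: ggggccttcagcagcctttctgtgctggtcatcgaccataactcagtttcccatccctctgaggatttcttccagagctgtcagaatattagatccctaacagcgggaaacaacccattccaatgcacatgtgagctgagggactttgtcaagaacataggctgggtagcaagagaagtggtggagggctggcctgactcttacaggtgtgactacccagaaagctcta

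The windows found at starts of these neighbouring genes differ in sequence. RefSeq promoter windows (GRCm38.p6, 250 bases before to 50 after a start) were found for 7 of the 10 members, in 9 windows. The letters GAGGAAGT, a core bound by the myeloid factor PU.1, were searched on both strands and occur in 1052 of 32851 windows (3.2%). Among the members they occur in the window of Tlr1, at -23 to -16 from the start, and in that of Tlr9, at 10 to 17 on the other strand. A pair of GAAA with any 2 bases between them, of the kind bound by interferon regulatory factors, occurs in 1131 windows (3.44%). Among the matched members it was found only in the window of Tlr6, in 2 overlapping matches on the opposite strand, at -116 to -107 and at -110 to -101. The bases just before these starts of Tlr1 (chr5:64933559-64933683) and Tlr6 (chr5:64959167-64959291) are shown to compare the neighbours. They are written 5′ to 3′ on the minus strand, with the matched letters in capitals. The start used for Tlr6 lies inside the gene span given above, whereas that of Tlr1 lies near the end of its span. The positions compared are therefore unlike. A match is a stretch of letters and not a measured binding site.
Tlr1 upstream: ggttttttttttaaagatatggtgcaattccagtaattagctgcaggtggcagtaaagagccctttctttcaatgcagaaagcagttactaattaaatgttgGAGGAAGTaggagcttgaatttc
Tlr6 upstream: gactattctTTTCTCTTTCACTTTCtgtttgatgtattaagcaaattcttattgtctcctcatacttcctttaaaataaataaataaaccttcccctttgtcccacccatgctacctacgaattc

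Tlr7 (chrX:167303380-167330574) and Tlr8 (chrX:167241123-167264329) also lie side by side, 39050 bases apart on the minus strand, and shared none of their 31-base words with another gene. Tlr13 (chrX:106143275-106160493) is on the same chromosome. Tlr2 (chr3:83836272-83841824), Tlr9 (chr9:106222598-106226876), Tlr13 and Cd14 shared no word either. Tlr3 (chr8:45395665-45411075) shared 184 of its 5001 words (3.68%) with the gene model Gm45542, and Tlr4 (chr4:66827551-66846581) shared 37 of 5432 (0.681%).

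The lowest total of estimated counts was 54683838, in WT-Guanabenz 1, the highest was 491137160, in WT-Control 3, and the lowest count of any member in any library was 508. Adra2a stood at 0.286 to 0.589 CPM, counts scaled to library size, in WT libraries and 0.0917 to 0.293 in KO libraries, so the ranges overlapped slightly. Y-linked transcripts averaged above 1 CPM in all 3 WT-Control libraries, in 0 of 3 KO-Clonidine libraries and in 2 of 3 of each other group. The markers of 10 cell types were summed in each library. Those of macrophages and monocytes reached 11000 to 14300 CPM and those of fibroblasts 11900 to 21200 CPM. Epithelial markers summed to 3.99 to 13.0 CPM, with Cdx2 at 0 in at least 1 library, so the epithelial markers of the labelled carcinoma were near absent. T cell markers summed to 21.2 to 57.5 CPM, and neutrophil markers to 60.3 to 117 CPM with Camp and Ngp at 0 in at least 1 library. In bulk tumours, fewer cells of a type and less RNA per cell cannot be told apart.

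Per length, Cd14 was the most abundant of the 10 genes and Tlr6 the least. Levels are CPM after TMM scaling, divided here by the longest protein-coding transcript in kilobases (CPM per kb). The means over 18 libraries were 35.7 for Cd14, 25 for Tlr2, 15.3 for Tlr13, 10.4 for Tlr1 and 8.62 for Tlr7. They were 7.61 for Tlr4, 6.37 for Tlr8, 4.66 for Tlr9, 4.03 for Tlr3 and 2.63 for Tlr6. Cd14, which hands lipopolysaccharide to Tlr4, exceeded Tlr2 in 16 of 18 libraries, and Tlr2 exceeded Tlr13 in 18 of 18 with no overlap of their ranges. Every other pair of neighbours in this order overlapped in range, although Tlr13 exceeded Tlr1, Tlr4 exceeded Tlr8, Tlr8 exceeded Tlr9 and Tlr3 exceeded Tlr6 within each of the 18 libraries. Tlr1 exceeded Tlr7 in 16 libraries, Tlr7 exceeded Tlr4 in 17 and Tlr9 exceeded Tlr3 in 16. Over all libraries the CPM of Cd14 varied most, from 42.2 to 88.4, a ratio of 2.09, followed by Tlr9 with 2.03. Tlr6 varied least, with a ratio of 1.4.

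**Figure D1:**
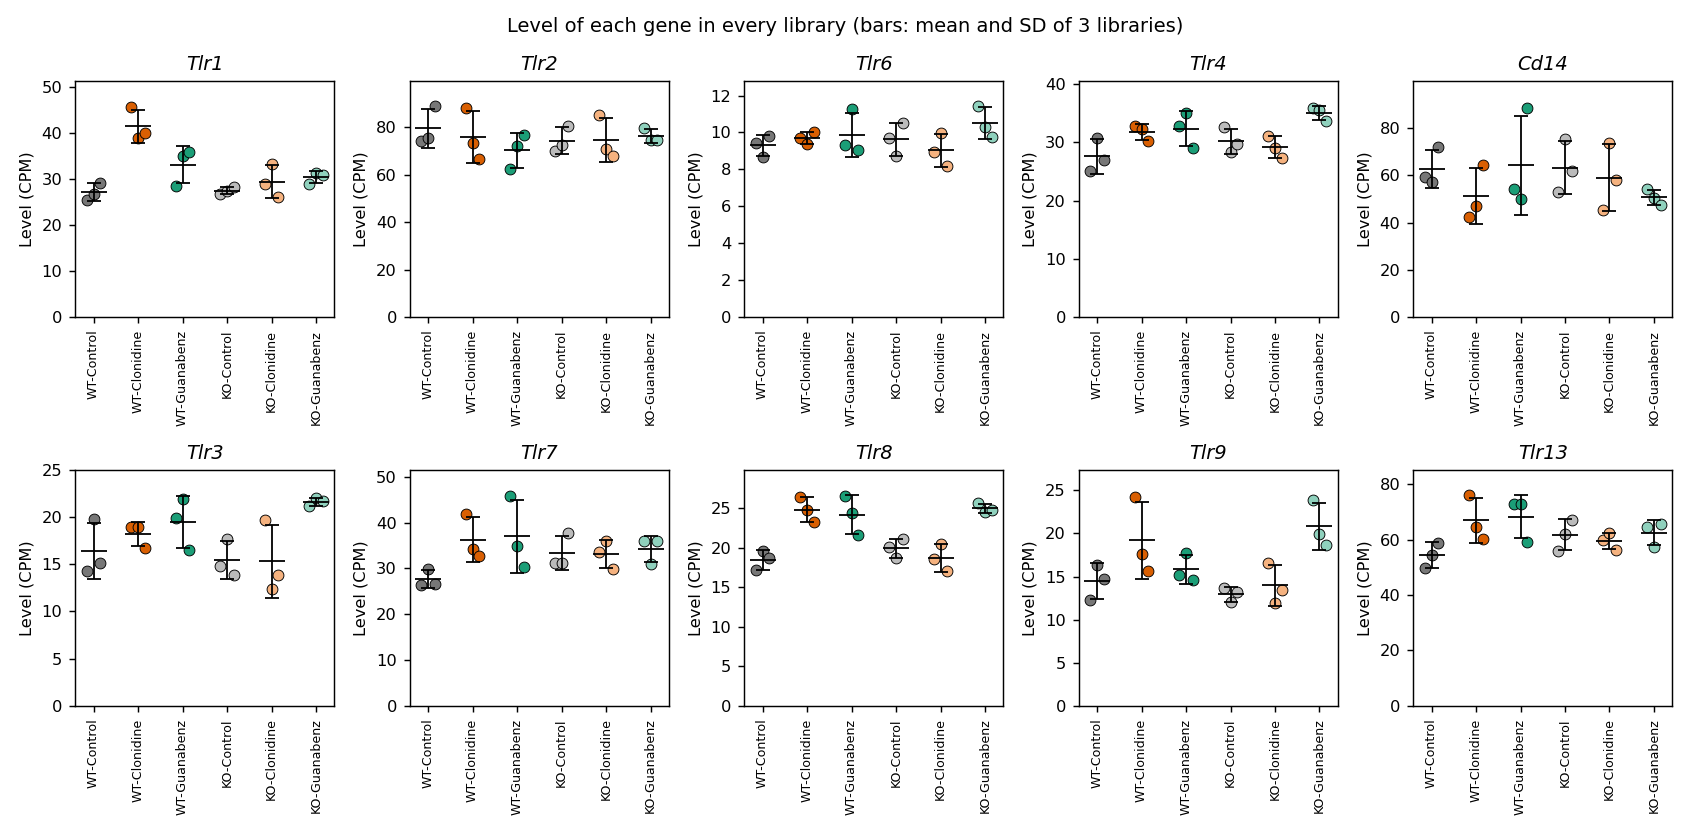
Level of each gene in CPM (vertical axes, linear, from 0) in the 3 libraries of each of 6 groups (points), with mean and SD (bars). The 3 WT-Clonidine libraries of Tlr1 lie between 38.9 and 45.5 CPM, above every other library, whereas for Tlr2 and Tlr6 all neighbouring groups overlap.

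Among the surface receptors, Tlr1 stood apart in WT-Clonidine. Its levels there were 45.5, 38.9 and 39.8 CPM in libraries 1, 2 and 3, against 25.3, 26.7 and 29.2 in WT-Control. WT-Guanabenz gave 28.4, 34.9 and 35.9 CPM. No library of any other group reached the lowest WT-Clonidine value, and the WT-Guanabenz libraries were split, with the first among the controls. In KO hosts Tlr1 was 26.6, 27.4 and 28.2 CPM in KO-Control, 28.8, 33.3 and 26.0 in KO-Clonidine and 28.9, 31.2 and 30.9 in KO-Guanabenz. KO-Clonidine spanned the range of KO-Control, and KO-Guanabenz lay just above it.

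Tlr2, the partner of Tlr1 in sensing lipopeptides, gave overlapping ranges in every pair of neighbouring groups. Its group means ran from 70.3 ± 7.37 CPM (SD, n = 3) in WT-Guanabenz to 79.6 ± 8.33 (SD, n = 3) in WT-Control. Tlr6, the alternative partner of Tlr2, ranged only from 9.04 ± 0.902 CPM (SD, n = 3) in KO-Clonidine to 10.5 ± 0.863 (SD, n = 3) in KO-Guanabenz. Neither partner followed the pattern of Tlr1. Tlr4, the lipopolysaccharide receptor, was 25, 30.8 and 26.9 CPM in WT-Control, 32.8, 32.3 and 30.2 in WT-Clonidine and 32.9, 35.1 and 29.1 in WT-Guanabenz. In KO hosts it was 32.6, 28.4 and 29.7 CPM in KO-Control, 31.1, 29.1 and 27.3 in KO-Clonidine and 36.0, 35.5 and 33.6 in KO-Guanabenz. The 3 KO-Guanabenz libraries were above those of every other group except WT-Guanabenz, and all groups neighbouring in mean overlapped.

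Cd14 ran against most receptors. It was 59.4, 57.0 and 72.0 CPM in WT-Control, 42.2, 47.0 and 64.5 in WT-Clonidine and 54.1, 50.1 and 88.4 in WT-Guanabenz. In KO hosts it was 52.9, 75.2 and 61.8 CPM in KO-Control, 45.3, 73.5 and 58.0 in KO-Clonidine and 54.1, 50.4 and 47.6 in KO-Guanabenz. Single libraries stood out, above all WT-Guanabenz 3, and the ranges of groups neighbouring in mean overlapped. All KO-Guanabenz libraries lay below all WT-Control libraries. In the same library, cytokine genes that Toll-like receptors induce were high: Il6 was 14 CPM against 0.974 and 0.587 in the other WT-Guanabenz libraries. The chemokine gene Cxcl2 was 39.1 CPM there, against 1.73 and 2.03. WT-Guanabenz 3 therefore carried the highest Cd14 of the study beside high cytokine transcripts, and group means of Cd14 rest in part on it.

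The endosomal RNA sensors Tlr7, Tlr8 and Tlr13 had their lowest group mean in WT-Control. So did the surface receptors Tlr1 and Tlr4, but not Tlr3, which also senses RNA. Tlr8 was 17.1, 19.6 and 18.7 CPM in WT-Control, 26.4, 24.8 and 23.2 in WT-Clonidine and 26.5, 24.4 and 21.6 in WT-Guanabenz. In KO hosts it was 20.1, 18.6 and 21.0 CPM in KO-Control, 18.5, 20.5 and 17.1 in KO-Clonidine and 25.6, 24.5 and 24.7 in KO-Guanabenz. The groups thus fell into a higher set, made of both WT drug groups and KO-Guanabenz, and a lower set of both controls and KO-Clonidine, with no overlap between the sets. Tlr7, a sensor of single-stranded RNA, was 26.5, 29.9 and 26.6 CPM in WT-Control, 41.8, 34.2 and 32.7 in WT-Clonidine and 45.8, 34.8 and 30.2 in WT-Guanabenz. Its KO libraries ran from 29.8 to 37.7 CPM with overlap of all 3 groups. Tlr13, a sensor of bacterial ribosomal RNA, was 49.7, 54.6 and 58.8 CPM in WT-Control, 75.9, 64.5 and 60.2 in WT-Clonidine and 72.6, 72.9 and 59.2 in WT-Guanabenz. Its KO libraries ran from 55.9 to 67.2 CPM, again with overlap of all groups. For both genes the WT drug groups lay above WT-Control, and the KO groups lay between in mean.

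Tlr9, the sensor of unmethylated CpG DNA, and Tlr3, the sensor of double-stranded RNA, had their highest group mean in KO-Guanabenz. Tlr4, Tlr6 and Tlr8 also had theirs there. Tlr9 was 23.9, 19.9 and 18.7 CPM in KO-Guanabenz, against 13.7, 12.0 and 13.2 in KO-Control and 16.6, 12.0 and 13.4 in KO-Clonidine. In WT hosts it was 12.3, 16.4 and 14.8 CPM in WT-Control, 24.3, 17.6 and 15.7 in WT-Clonidine and 15.1, 17.7 and 14.6 in WT-Guanabenz. The single highest value was in WT-Clonidine 1, and the WT groups overlapped. Tlr3 was 21.1, 22.0 and 21.7 CPM in KO-Guanabenz, against 14.8, 17.7 and 13.8 in KO-Control. The ranges of Tlr3 in the other groups were 14.3 to 19.8 CPM in WT-Control, 16.7 to 18.9 in WT-Clonidine, 16.5 to 22.0 in WT-Guanabenz and 12.4 to 19.7 in KO-Clonidine. KO-Guanabenz had the highest mean of both genes, with the conflict between its labels as stated. Its SD was 0.433 CPM for Tlr3, the lowest of the 6 groups, and 2.71 CPM for Tlr9, the second highest.

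In WT hosts, 8 of the 10 genes had a higher mean with clonidine than in controls, and 4 of them, Tlr1, Tlr7, Tlr8 and Tlr13, had no overlap between the groups. Over all genes tested, 11.1% lay higher without overlap and 9.81% lower. This contrast was known when the genes were chosen, so nothing is read from the count. The log2 differences, with standard errors (SE) from the edgeR fit to all 18 libraries, were 0.61 (SE 0.098) for Tlr1 and 0.43 (SE 0.086) for Tlr8. They were 0.41 (SE 0.158) for Tlr9, 0.39 (SE 0.134) for Tlr7 and 0.30 (SE 0.101) for Tlr13. Tlr1 thus differed 1.53-fold between the means, and its difference ranged from 0.54 to 0.67 when libraries were left out in turn. The difference of Tlr9 rested on WT-Clonidine 1, without which it was 0.20, and that of Tlr13 was also 0.20 without that library. Tlr4 differed by 0.21 (SE 0.085), Tlr3 by 0.15 (SE 0.157), Tlr6 by 0.06 (SE 0.107) and Tlr2 by -0.07 (SE 0.111). Cd14 differed by -0.30 (SE 0.213), and by -0.18 without WT-Clonidine 1. The median over the 10 genes was 0.25, and over all genes tested 0.0032.

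Markers of other cells differed in the same comparison. All 9 T cell markers tested were higher in mean in WT-Clonidine than in WT-Control, with a median log2 difference of 0.84 and summed levels of 43.7 to 57.5 against 25 to 34.9 CPM. All 8 mast cell and eosinophil markers tested were higher, with a median of 1.38 and sums of 18.6 to 32.1 against 9.73 to 14.4 CPM, and Epx and Ms4a2 at 0 in at least 1 library. Neutrophil markers had a median of -0.52, with 6 of 8 tested lower in mean. Their sums overlapped, at 73.3 to 95.4 against 80.3 to 99.1 CPM. The 15 macrophage and monocyte markers had a median of 0.079, with 10 higher, and sums of 11100 to 13100 against 12300 to 13200 CPM. Whether T cells, mast cells or eosinophils have a part in the differences of the receptors was not tested.

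In KO hosts, no member was seen to change with clonidine. The log2 differences between KO-Clonidine and KO-Control ran from -0.10 for Cd14 (SE 0.213) to 0.11 for Tlr9 (SE 0.16), with a median of -0.034 over the 10 genes and 0.0011 over all genes. For Tlr1 the difference was 0.10 (SE 0.098) and for Tlr8 -0.09 (SE 0.087). In edgeR, 0 of 10 members passed an adjusted p of 0.05, beside 3 of 16125 genes (0.0186%), namely Apol8, Rab11fip1 and Esp8, whose family holds near copies. The unadjusted p was under 0.05 for 890 genes (5.52%) and for 0 members, the smallest being 0.31 for Tlr8. DESeq2 and limma-voom called 0 members as well, beside 0.18% and 0.0186% of genes. All 10 members overlapped between the groups, whereas 4.4% of genes lay higher and 4.43% lower without overlap. Y-linked transcripts averaged above 1 CPM in 0 of 3 KO-Clonidine but in 2 of 3 KO-Control libraries, so clonidine and this trait cannot be fully separated here. With a term for Y-linked transcripts in the fit, the differences of Tlr3, Tlr4 and Tlr7 changed sign, to 0.108, 0.0248 and 0.0238. On simulated counts the edgeR test found 70% of genes with a log2 change of 1. Those genes were drawn from all 16125 tested, so the share is not the power for these members. The SE of the members ran from 0.0855 for Tlr4 to 0.213 for Cd14, and small changes could be missed.

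The clonidine difference in WT minus that in KO hosts is described without a test, since it uses the known contrast. It was 0.52 (SE 0.122) for Tlr8, 0.51 (SE 0.138) for Tlr1, 0.40 (SE 0.19) for Tlr7 and 0.35 (SE 0.144) for Tlr13 on the log2 scale. It was 0.30 (SE 0.224) for Tlr9, 0.26 (SE 0.12) for Tlr4, 0.17 (SE 0.223) for Tlr3 and 0.15 (SE 0.152) for Tlr6. Tlr2 and Cd14 had the opposite sign, at -0.07 (SE 0.157) and -0.20 (SE 0.301). Between the clonidine groups themselves, Tlr1 was lower in KO-Clonidine than in WT-Clonidine by -0.50 (SE 0.098) and Tlr8 by -0.41 (SE 0.086). These were the 2 members without overlap there, where 12.8% of all genes lay lower and 14.2% higher. In 0 of 3 KO-Clonidine libraries, but in 2 of 3 WT-Clonidine libraries, Y-linked transcripts averaged above 1 CPM. With a term for Y-linked transcripts in the fit, the clonidine difference in WT minus that in KO hosts was 0.528 for Tlr1 and 0.495 for Tlr8.

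**Figure D2:**
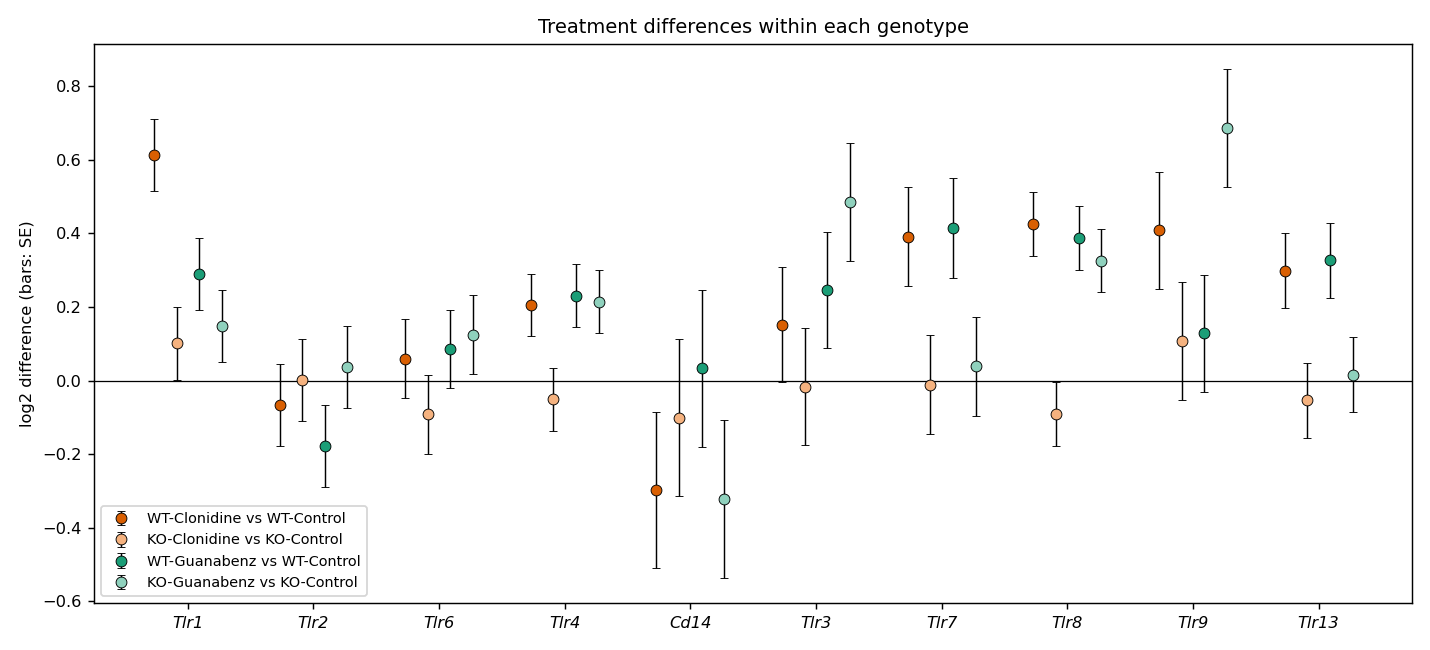
Log2 difference in level (vertical axis, linear) of each gene between drug and control libraries within WT and KO hosts, from the fit to 18 libraries, with bars for the SE. Clonidine differences lie between 0.30 and 0.61 for Tlr1, Tlr7, Tlr8, Tlr9 and Tlr13 in WT hosts and between -0.10 and 0.11 for all 10 genes in KO hosts.

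With guanabenz in WT hosts, Tlr7, Tlr8 and Tlr13 lay above WT-Control without overlap. Over all genes 6.41% lay higher and 8.19% lower without overlap. Their log2 differences were 0.41 (SE 0.135) for Tlr7, 0.39 (SE 0.086) for Tlr8 and 0.33 (SE 0.102) for Tlr13. Tlr1 had 0.29 (SE 0.098), Tlr3 0.25 (SE 0.158) and Tlr4 0.23 (SE 0.085), each with overlap. Both drug contrasts in WT hosts share the WT-Control libraries, and their values stand side by side for that reason without a test of likeness. Between the drugs, Tlr1 was higher with clonidine than with guanabenz by 0.32 (SE 0.098), and without overlap. Over all genes 5.33% lay higher and 3.74% lower in this way. The differences of Tlr7, Tlr8 and Tlr13 between the drugs were -0.02 (SE 0.134), 0.04 (SE 0.086) and -0.03 (SE 0.101). No doses are given in the labels, so the drugs cannot be compared at matched doses. The guanabenz difference in WT minus that in KO hosts was -0.56 (SE 0.225) for Tlr9 and 0.38 (SE 0.191) for Tlr7, again as a description and with the KO-Guanabenz labels in conflict.

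Among the KO groups, the libraries titled KO-Guanabenz, with the treatment entry untreated, were the ones that lay apart from KO-Control. Tlr1, Tlr3, Tlr4, Tlr8 and Tlr9 were higher in all 3 than in any KO-Control library. Over all genes 9.09% lay higher and 10.5% lower without overlap, so the shift in these libraries was not limited to these receptors. The log2 difference was 0.69 (SE 0.16) for Tlr9, 0.33 (SE 0.087) for Tlr8, 0.48 (SE 0.159) for Tlr3, 0.21 (SE 0.086) for Tlr4 and 0.15 (SE 0.098) for Tlr1. In edgeR, 0 of 10 members passed an adjusted p of 0.05, beside 2 of 16125 genes (0.0124%), Hddc2 and Ndufa12. The smallest adjusted p in edgeR was 0.094 for Tlr9, then 0.13 for Tlr8, 0.19 for Tlr3 and 0.26 for Tlr4, with unadjusted p of 0.00054, 0.0017, 0.0074 and 0.023. At an unadjusted p under 0.05 there were 2437 genes (15.1%), 4 members among them. The calls depended on the tool: DESeq2 called Tlr9 at an adjusted p of 0.0044 and Tlr8 at 0.025, and limma-voom called Tlr9 at 0.047. Over all genes, DESeq2 called 457 of the 12371 for which it gave an adjusted p (3.69%), and limma-voom 343 of 16125 (2.13%). Over the other alternatives and omissions of single libraries, no member was called in this comparison. Cd14 differed by -0.32 (SE 0.214), with an adjusted p of 0.51 in edgeR, and by -0.18 without KO-Control 2.

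A pair of macrophage genes was higher in mean in the same libraries. The mean log2 CPM of Csf1r, the receptor for macrophage colony-stimulating factor, and Adgre1, which encodes F4/80, is called the macrophage level here. It was 8.62 ± 0.0657 (SD, n = 3) in KO-Guanabenz and 8.36 ± 0.225 (SD, n = 3) in KO-Control. KO-Control 2 was low at 8.104, beside 8.495 and 8.493 in the other KO-Control libraries, so much of the gap rests on it. The mean log2 CPM of 15 macrophage and monocyte markers was 7.97 ± 0.0482 (SD, n = 3) against 7.95 ± 0.0454 (SD, n = 3), with a median difference of 0.059 over the markers. With this level as a covariate, the log2 difference of Tlr9 was 0.45 (SE 0.157), that of Tlr8 0.20 (SE 0.084), that of Tlr4 0.10 (SE 0.088) and that of Tlr3 0.47 (SE 0.196). The value of Tlr3 was thus close to that without the covariate, whereas those of Tlr9, Tlr8 and Tlr4 were smaller. Fibroblast markers were also higher in KO-Guanabenz than in KO-Control, with a median of 0.33 and 7 of 8 higher in mean, and mast cell and eosinophil markers were lower, with a median of -0.86 and 7 of 8 lower. The part of these cells in the result was not tested.

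Between the genotypes, edgeR called no member. KO-Guanabenz against WT-Guanabenz gave 0.40 (SE 0.159) for Tlr9, without overlap. Over all genes 6.26% lay higher and 6.06% lower in this way. Its adjusted p in edgeR was 0.57, and 0 of 10 members were called beside 3 of 16125 genes (0.0186%), which were Cnbd2, Neurl1a and Per2. Tlr9 was the member with an unadjusted p under 0.05, at 0.024, among 1316 genes (8.16%). DESeq2 and limma-voom called 0 members, beside 0.158% and 0.0124% of genes. Cd14 differed by -0.34 (SE 0.214) and by -0.04 without WT-Guanabenz 3. Averaged over the 3 treatments, KO against WT gave -0.20 (SE 0.057) for Tlr1, with an unadjusted p of 0.0025 and an adjusted p of 0.1 in edgeR. DESeq2 called Tlr1 in that comparison, at an adjusted p of 0.029, with 4.54% of genes called. limma-voom gave it 0.056, with 2.24% of genes called. In edgeR 0 of 10 members were called there, beside 67 of 16125 genes (0.416%), among them Adra2a itself, and 2810 genes (17.4%) at an unadjusted p under 0.05. The other 9 members lay between -0.08 and 0.04. The average of Tlr1 includes the WT-Clonidine libraries, in which its level was already known. Nothing about Tlr1 is therefore read from its p-values or from the DESeq2 call. By treatment, Tlr1 differed between KO and WT by -0.50 (SE 0.098) with clonidine, -0.13 (SE 0.098) with guanabenz and 0.02 (SE 0.098) in controls. No member was without overlap between all 9 KO and all 9 WT libraries, and 0.0186% of genes lay higher and 0.0372% lower in this way. Under control treatment, which is described only, Tlr1 differed by 0.02 (SE 0.098) between the genotypes and Tlr7 by 0.27 (SE 0.135). Tlr7 had no overlap there, and over all genes 4.56% lay higher and 3.77% lower without overlap.

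Across the 18 libraries, 9 of 10 members had a positive correlation with the macrophage level and Cd14 a negative one. Values over all 18 libraries include the known contrast and are given as a description, with no p. Pearson's r was 0.741 for Tlr9 with Spearman's rho 0.668, and r was 0.66 without KO-Control 2 and WT-Clonidine 1, the libraries farthest from the median macrophage level. For Tlr6, r was 0.667, rho 0.653 and r without those libraries 0.72. After group means were removed, r was 0.616 for Tlr9 and 0.664 for Tlr6 (exact permutation p within groups 0.013 and 0.014, adjusted 0.31 for each). These tests used 46656 exact pairings within groups and Benjamini-Hochberg adjustment over 16123 genes. They called no gene, which gives 0.0% in either direction, so no member passed. Within groups the unadjusted p was under 0.05 for 2066 genes (12.8%) and for 5 members. In the 11 libraries with Y-linked transcripts r was 0.812 for Tlr9 and 0.693 for Tlr6, and in the other 7 it was 0.456 and 0.615.

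**Figure D3:**
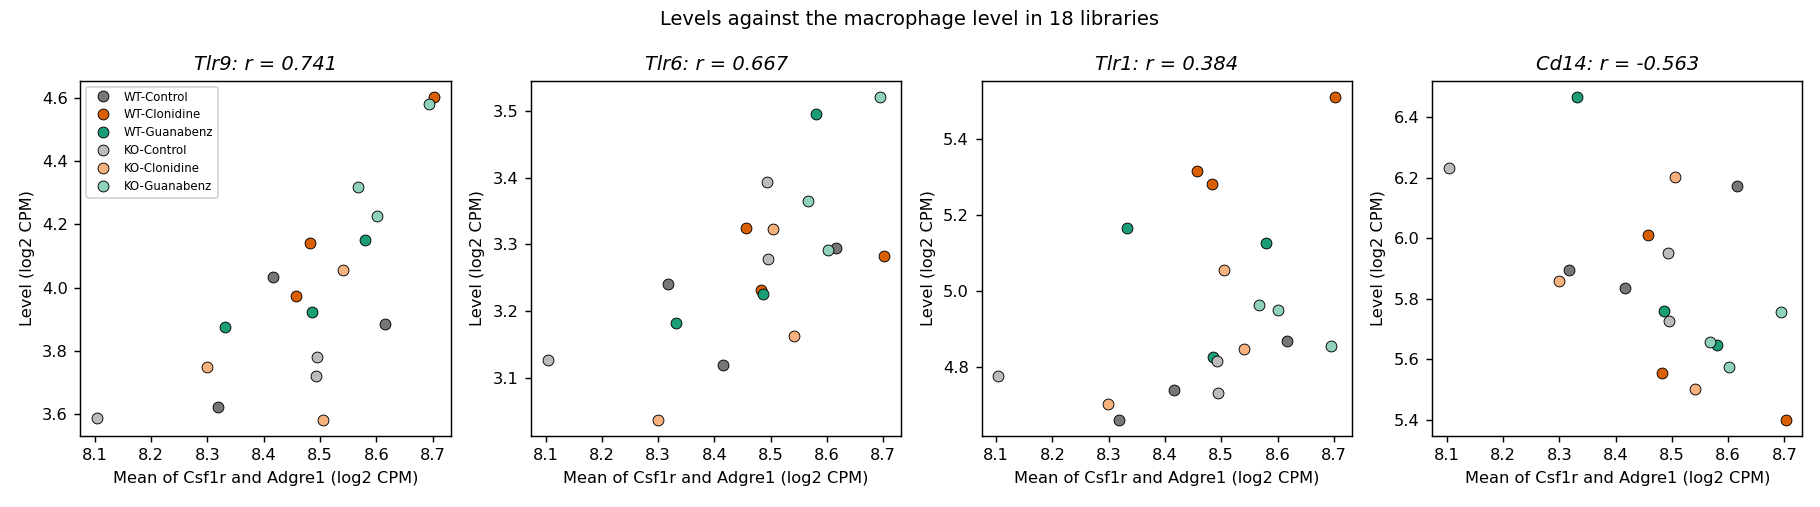
Level of Tlr9, Tlr6, Tlr1 and Cd14 (vertical axes, log2 CPM) against the mean log2 CPM of Csf1r and Adgre1 (horizontal axes) in 18 libraries, coloured by group. Tlr9 and Tlr6 slope up with r of 0.741 and 0.667, the 3 WT-Clonidine points of Tlr1 lie above the rest, and Cd14 slopes down with r of -0.563.

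Tlr1 had a lower r with these macrophage genes, 0.384, with rho 0.443. Its r was 0.138 without the 2 extreme libraries, so the relation rested on them, and 0.347 within groups (exact permutation p 0.19, adjusted 0.58). For Cd14, r was -0.563, rho -0.54, r without those libraries -0.373 and r within groups -0.446 (exact permutation p 0.12, adjusted 0.5). For Tlr4 r was 0.625, rho 0.608 and r within groups also 0.608 (exact permutation p 0.04, adjusted 0.37). For Tlr8 r was 0.609, rho 0.521 and r within groups 0.698 (exact permutation p 0.01, adjusted 0.31). The remaining members, Tlr13, Tlr2, Tlr7 and Tlr3, had r from 0.372 to 0.468 over the 18 libraries. Of these, Tlr13 had 0.601 within groups (exact permutation p 0.033, adjusted 0.36) and Tlr3 had 0.0517. The members' median r over the 18 libraries was 0.45 (quartiles 0.39 and 0.62), against -0.013 (quartiles -0.23 and 0.22) for all genes tested. When the level of Tlr1 was set against the macrophage level within each library, the log2 ratio was -3.18 ± 0.0335 (SD, n = 3) in WT-Clonidine and -3.69 ± 0.049 (SD, n = 3) in WT-Control. In the fit with the macrophage level as covariate, the clonidine difference in WT hosts was 0.58 (SE 0.097) for Tlr1 and 0.38 (SE 0.072) for Tlr8. Without the covariate these were 0.61 and 0.43. The difference with it was 0.31 (SE 0.135) for Tlr9, 0.32 (SE 0.125) for Tlr7 and 0.24 (SE 0.088) for Tlr13. Without it these were 0.41, 0.39 and 0.30. The covariate holds only Csf1r and Adgre1, and no broader list of macrophage genes was fitted in its place.

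The mean level of a broader list of 15 macrophage and monocyte genes was also used in place of Csf1r and Adgre1. With it, Tlr1 had an r of 0.748, and 0.655 without the 2 libraries farthest from the median of this list. The r was lower than with Csf1r and Adgre1 for Tlr9 (0.358), Tlr6 (0.362), Tlr4 (0.302), Tlr8 (0.534), Tlr2 (0.167) and Tlr3 (0.0189). It was weaker for Cd14 (-0.143) and higher for Tlr7 (0.598) and Tlr13 (0.663). The relations thus depended on the genes chosen for macrophages. With T cell markers Tlr1 had 0.724 and with conventional dendritic cell markers 0.645. Tlr1 and the T cell markers were both highest in WT-Clonidine, so the known contrast enters these values, and they are given with no p. Cd14 had its highest r, 0.667, with neutrophil markers, while Tlr9 had -0.601 with the same markers. The libraries behind these values also share depth and group, and the cells behind each level were not separated.

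**Figure D4:**
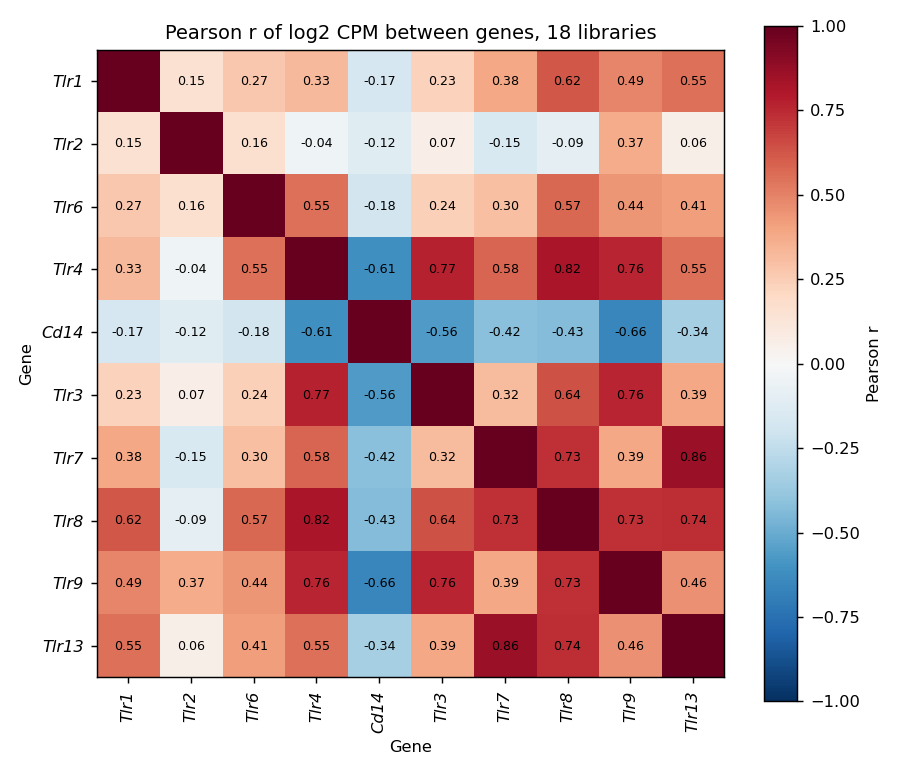
Pearson correlation of log2 CPM between each pair of the 10 genes over 18 libraries (colour scale from -1 to 1, value in each cell). Tlr7 and Tlr13 form the closest pair with 0.86, Tlr4 and Tlr8 follow with 0.82, and the row of Cd14 is negative throughout.

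The 10 genes did not vary as a block. Tlr7 and Tlr13, which sense RNA, were the closest pair with r of 0.862 over 18 libraries, followed by Tlr4 with Tlr8. Tlr2 was not close to any other member, its highest r being 0.373 with Tlr9. Cd14 had a negative r with all 9 receptors, the lowest being -0.655 with Tlr9 and -0.61 with Tlr4, its partner in lipopolysaccharide sensing. These values describe libraries that share groups and are given without a test. Among all tested genes with a mean log2 CPM of at least 1, the pattern closest to Tlr1 was that of Samhd1, a dNTP hydrolase (r 0.929), then Clec4a3 (0.918) and C3ar1, the receptor of complement C3a (0.907). Tlr8 was most like the transcription factor gene Bach1 (0.916), Pik3cg (0.891) and Synj1 (0.872). Tlr9 was most like Siglece (0.906), Cd34 (0.891) and Prex1 (0.879). Pik3cg, which encodes a phosphoinositide 3-kinase subunit of leukocytes, also led the list of Tlr4 (0.857). The closest gene was Frmd4b for Tlr7 (0.894), Tlr7 for Tlr13 (0.862), Man2b1 for Tlr6 (0.875), Kat2b for Tlr3 (0.867), Limd2 for Tlr2 (0.865) and Vps16 for Cd14 (0.834).

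Of the 3 other receptors of the family in the table, Tlr12 was measured well and Tlr5 and Tlr11 were low. Tlr12 was 11, 14.7 and 9.07 CPM in KO-Guanabenz and 9.03, 5.87 and 5.17 in KO-Control. It thus joined the receptors without overlap in that comparison, with a log2 difference of 0.80 (SE 0.267) and an adjusted p of 0.19 in edgeR. Tlr5, the flagellin receptor, had group means of 1.36 to 2.09 CPM, and Tlr11 had 0.239 to 0.667 CPM with 0 counts in WT-Control 1 and KO-Clonidine 1. None of the 3 passed the edgeR test in any tested comparison, and neither DESeq2 nor limma-voom called them.

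The genes that serve these receptors were taken as lists and none passed the edgeR test in the 4 tested comparisons. That holds for 0 of 12 co-receptors, chaperones and proteases, 0 of 6 adaptors, 0 of 16 kinases and ubiquitin ligases, 0 of 10 transcription factors, 0 of 11 inhibitors and 0 of 22 target genes. At an unadjusted p under 0.05, the lists together with Tlr5, Tlr11 and Tlr12 held 5 of 80 genes in KO-Clonidine and 7 in KO-Guanabenz, each against KO-Control. They held 9 in KO-Guanabenz against WT-Guanabenz and 11 in KO against WT averaged. The shares over all genes in these comparisons were 5.52%, 15.1%, 8.16% and 17.4%. DESeq2 called 2 of the 80, Nfkb1 and Rel, in KO-Guanabenz against KO-Control, beside 3.69% of all genes. In KO against WT averaged it called 3 of the 80, Cd36, Ikbke and Jun, beside 4.54% of all genes. In the first of these comparisons limma-voom called 1, Nfkb1, beside 2.13% of all genes. In the second it called 3, Cd36, Ifnb1 and Jun, beside 2.24%. Neither tool called a listed gene in the other comparisons, and nothing is read from these counts. In KO-Guanabenz against KO-Control, the NF-kappaB subunit genes Nfkb1 and Rel differed by 0.19 (SE 0.052) and 0.30 (SE 0.084), with adjusted p of 0.13 and 0.14 in edgeR. Pik3ap1, an adaptor to phosphoinositide 3-kinase, differed by 0.38 (SE 0.142), and Unc93b1, which escorts endosomal receptors, by 0.15 (SE 0.089), with adjusted p of 0.23 and 0.44 in edgeR. All 6 adaptors were higher in mean there, with a median of 0.07, while the 22 target genes had a median of -0.089. These target genes ran from -0.92 to 0.69, with 9 higher and 13 lower in mean. Of the other lists, kinases and ubiquitin ligases had a median of 0.069, transcription factors 0.098 and inhibitors 0.0995. Co-receptors, chaperones and proteases had -0.0026.

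In KO-Clonidine against KO-Control, Nfkb2 differed by 0.22 (SE 0.077) and the chaperone gene Cnpy3 by 0.18 (SE 0.061), with adjusted p of 0.87 and 0.85 in edgeR. Averaged over the treatments, KO against WT gave 1.16 (SE 0.307) for Ifnb1, the interferon beta gene, -0.26 (SE 0.07) for Ikbke and 0.19 (SE 0.047) for Jun. Their adjusted p in edgeR were 0.086, 0.088 and 0.069. Cd36, a scavenger receptor that helps Tlr2, gave -0.37 (SE 0.114) with an adjusted p of 0.12 in edgeR. In KO-Guanabenz against WT-Guanabenz, Il6 differed by -2.57 (SE 0.914) and Cxcl2 by -3.18 (SE 1.19), with adjusted p of 0.55 and 0.57 in edgeR. Both differences include WT-Guanabenz 3, the library with the high values given beside Cd14.

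In WT-Clonidine against WT-Control, which is described only, the 12 co-receptors and chaperones had a median of 0.079, the adaptors 0.049 and the target genes 0.0016. Myd88, the adaptor of most of these receptors, differed by -0.03 (SE 0.084), Ticam1, the adaptor of Tlr3, by 0.10 (SE 0.094) and Ly96, which binds lipopolysaccharide with Tlr4, by 0.11 (SE 0.138). Other listed genes differed more. Cd36 had the highest value of the co-receptor list, 0.72 (SE 0.197), with 22.1 ± 3.64 CPM (SD, n = 3) in WT-Clonidine and 13.3 ± 1.69 (SD, n = 3) in WT-Control, and Pik3ap1 the highest of the adaptors, 0.32 (SE 0.141). Spi1, which encodes PU.1, differed by 0.08 (SE 0.091).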

How the data were processed

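The authors trimmed reads with Trim Galore 0.6.5 and quantified them with kallisto 0.46.0 on GRCm38, per the submitters' processing notes. The resulting estimated counts were deposited for each gene as whole numbers, and the summing of transcripts to genes and the strand setting are not given in the sources used here. All 18 columns were mapped by title, and 20994 of 21015 gene IDs matched a RefSeq symbol of GRCm38.p6. In R 4.3.3, edgeR 4.0.16 (filterByExpr, TMM, quasi-likelihood test, 6 group means, 12 residual degrees of freedom, Benjamini-Hochberg adjustment over 16125 genes, calls at an adjusted p under 0.05) gave log2 differences and SE. Log2 CPM used a prior count of 2. The test was tested on simulated data. DESeq2 1.42.0, limma 3.58.1 with voom, other scalings, filters, covariates and omissions of libraries were alternatives. Relations to Csf1r and Adgre1 were tested after group means were removed, two-sided, with 46656 exact pairings within groups.

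The members and all gene lists were chosen with earlier results of these data known. Named genes were the 10 members, the 3 genes most like each member by Pearson's r, of which the closest or all 3 are printed, and, among the 2 with the smallest p in each pathway list and tested comparison, those printed. Myd88, Ticam1, Ly96, Cd36, Pik3ap1 and Spi1 with clonidine in WT hosts were named after their values were seen. Precision rests on 3 libraries a group, as counts of 508 or more keep counting error small.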

Additional observations from a re-analysis of the deposited data

How the results depend on the processing

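No member was called in any tested comparison under any edgeR alternative. The genes called in all, however, varied with the setting. KO-Clonidine against KO-Control had 3, and 29 with DESeq2, 0 with the compared groups alone, 0 with KO-Guanabenz read as KO-Control and 1 with a Y-linked term. KO-Guanabenz against KO-Control had 2, and 457 with DESeq2, 343 with limma-voom, 15 with total-count scaling, 19 with a stricter filter, 0 with the compared groups alone, 0 with the macrophage covariate, 11 with the Y-linked term and 4 without the 2 deepest libraries. KO-Guanabenz against WT-Guanabenz had 3, and 24 with DESeq2, 0 with the compared groups alone, and 1 each with total-count scaling, the stricter filter, the macrophage covariate and the Y-linked term. KO against WT had 67, and 618 with DESeq2, 362 with limma-voom, 38 with total-count scaling, 3 with KO-Guanabenz read as KO-Control, 152 with the macrophage covariate and 19 without the 2 deepest libraries. With single libraries left out, these counts ran from 0 to 4, from 0 to 85 (85 without KO-Guanabenz 3), from 1 to 3 and from 7 to 111 (111 without WT-Guanabenz 3). The cause was not tested. The members' median clonidine difference in WT minus KO was 0.278, and 0.394 with KO-Guanabenz read as KO-Control. That of KO-Control against WT-Control was 0.0327, 0.101 without the 2 deepest libraries, and from 0.0115 to 0.101 with single libraries left out (0.101 without WT-Control 3).

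The labels do not say whether replicate numbers pair the libraries, which were treated as unpaired. Same-numbered libraries deviated with a mean r of -0.0042 over 45 pairs (-0.33 to 0.25). For different numbers the mean r was 0.0021 over 90 pairs (-0.4 to 0.4). Of 18 libraries, 5 correlated best with their own number. These values cannot exclude a pairing. With the replicate block, 0, 0 and 1 genes were called in KO-Clonidine against KO-Control, KO-Guanabenz against KO-Control and KO-Guanabenz against WT-Guanabenz, and Tlr2 had -0.000122 in the first of these.

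Signs changed only for members with a main log2 difference of at most 0.125 in size. For Tlr2 in KO-Clonidine against KO-Control (0.000867) the values were -0.00126 (DESeq2), -0.00162 (limma-voom), -0.00157 (RLE scaling), -0.0371 (total-count scaling), -0.00444 (stricter filter), -0.00241 (compared groups alone), -0.00047 (without the KO-Guanabenz libraries), -0.0171 (KO-Guanabenz read as KO-Control), -0.0473 (macrophage covariate), -0.00903 (Y-linked term) and -0.000435 (without the 2 deepest libraries). In the same comparison Tlr3 had 0.0122 with limma-voom. With the Y-linked term Tlr3, Tlr4 and Tlr7 had 0.108, 0.0248 and 0.0238. With KO-Guanabenz read as KO-Control Tlr9 and Cd14 had -0.275 and 0.0509. In KO-Guanabenz against KO-Control, limma-voom gave Tlr7 -0.0151 and Tlr13 -0.0215, and the macrophage covariate gave Tlr2 -0.1, Tlr6 -0.0176, Tlr7 -0.124 and Tlr13 -0.131. That covariate gave Tlr8 -0.0291 in KO-Guanabenz against WT-Guanabenz. In KO against WT, limma-voom gave Tlr2 0.0142, Tlr6 -0.00375 and Cd14 0.0385, and total-count scaling gave Tlr4 -0.00134, Tlr6 -0.0284 and Tlr7 -0.0287. There, KO-Guanabenz read as KO-Control gave Tlr13 0.00974 and Cd14 0.0321, the macrophage covariate Tlr2 0.00385, the Y-linked term Tlr3 0.00182, and leaving out the 2 deepest libraries Tlr2 0.0202 and Tlr7 -0.0111.

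With single libraries left out, signs also changed. The ranges in KO-Clonidine against KO-Control were -0.00273 to 0.178 (Tlr1), -0.102 to 0.0607 (Tlr2), -0.231 to 0.112 (Tlr3), -0.097 to 0.00649 (Tlr4), -0.0791 to 0.085 (Tlr7), -0.0276 to 0.207 (Tlr9), -0.119 to 0.0108 (Tlr13) and -0.293 to 0.0571 (Cd14). In KO-Guanabenz against KO-Control they were -0.0054 to 0.0967 (Tlr2), -0.00837 to 0.136 (Tlr7) and -0.0497 to 0.0809 (Tlr13). In KO-Guanabenz against WT-Guanabenz they were -0.234 to 0.0744 (Tlr7) and -0.029 to 0.115 (Tlr8). In KO against WT they were -0.0354 to 0.0367 (Tlr2), -0.0158 to 0.0475 (Tlr6), -0.0319 to 0.0705 (Tlr7) and -0.108 to 0.0588 (Cd14).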
